A study of Mus musculus with 6 samples.

Results

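The angiopoietin and TIE system was followed through 7 genes, Angpt1, Angpt2, Angpt4, Tek, Tie1, Ptprb and Svep1, which were picked by symbol from the 33697 genes counted in single-cell RNA-seq libraries of the mouse gut, and all 7 were found. The cells were live tdTomato+ cells sorted from the intestinal lamina propria of Flare-TSLP mice, C57BL/6 animals in which a tdTomato cassette at the Tslp locus reports the cytokine TSLP. No treatment is labelled, every library carried the same reporter allele, and the study's methods name both sexes for pooled experiments. The 6 libraries comprised 2 of the proximal small intestine (proximal jejunum), 2 of the distal small intestine (distal ileum), 1 of the cecum and 1 of the large intestine, each taken as 1 sample. The study describes several biological samples of each small intestinal region, marked with hashtag antibodies, so that a library may pool several of them, and no source used here ties a hashtag to a mouse.

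Angiopoietins are secreted ligands of TIE2, the receptor tyrosine kinase encoded by Tek, through which vessels mature and keep their endothelium quiescent. Angpt1 is an agonist made mainly by cells around vessels, whereas Angpt2 is released by endothelial cells and acts as agonist or antagonist depending on context, as an agonist in lymphatic vessels. Angpt4 is a further ligand of TIE2, TIE1 is a related receptor that pairs with TIE2, VE-PTP (Ptprb) is an endothelial phosphatase that removes phosphate from TIE2, and SVEP1 is a large extracellular matrix protein that binds TIE1 and is needed for lymphatic vessel remodeling.

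Of 93558 cells left after filters and doublet removal, 83830 could be placed in a class from marker genes that included no member. They held 14507 lymphatic endothelial cell (LEC)-like, 1071 blood endothelial-like, 602 pericyte-like, 394 smooth muscle- or myofibroblast-like and 67256 fibroblast-like cells. Among the fibroblast-like cells 15258 were trophocyte-like (crypt-base fibroblasts), 15425 Adamdec1 fibroblast-like, 6854 subepithelial fibroblast-like, 2563 telocyte-like and 8182 universal fibroblast-like (Pi16 and Dpp4), and 18974 were not split further. These subclasses are ranges of marker scores, and 28.2% of the fibroblast-like cells lay near a border. Libraries held 109675337 to 206827504 UMIs (tags of single transcripts) on genes, with a median of 6606.5 to 9233 UMIs per cell. The cecum held 222 and the large intestine 244 LEC-like cells, against 723 to 5754 in a small intestinal library. Blood endothelial-like cells of the cecum (13 cells) and pericyte-like cells of distal replicate 1 (12 cells) fell under the minimum of 20 and were left out. Levels are expressed as CPM, the UMIs of a gene scaled to 1000000 UMIs of its class and library. The 6 lymphatic markers summed to 16659 to 22891 CPM in LEC-like and 13.7 to 138 in fibroblast-like cells, and the 6 fibroblast lineage markers to 257 to 529 and 12631 to 20223. Tslp gave 0 of 7706219 UMIs in blood endothelial-like cells, which allows up to 0.389 CPM (counting error only), against 1.29 CPM in LEC-like and 1.78 in fibroblast-like cells. The reporter tdTomato was also at 0 UMIs in blood endothelial-like cells, against 2.37 CPM in LEC-like and 4.13 in fibroblast-like cells, and in smooth muscle- or myofibroblast-like cells both were at 0 of 3421075 UMIs, which allows up to 0.877 CPM. Of 92583 distinct cell barcodes 969 occurred in more than 1 library.

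In the GRCm39 build Tek (ENSMUSG00000006386) spans chr4:94627291-94763224 on the plus strand, Tie1 (ENSMUSG00000033191) chr4:118328385-118347261 and Svep1 (ENSMUSG00000028369) chr4:58042442-58206859, both on the minus strand. The ligand genes are Angpt1 (ENSMUSG00000022309) at chr15:42288058-42540417 and Angpt2 (ENSMUSG00000031465) at chr8:18739202-18791603, on the minus strand, and Angpt4 (ENSMUSG00000027460) at chr2:151753127-151787257 on the plus strand. Ptprb (ENSMUSG00000020154) lies at chr10:116111428-116225440 on the plus strand. Promoter sequences of 4 of the 7 genes were matched by symbol in RefSeq (GRCm38.p6), from 250 bases before to 50 after the start. Those of Tek and Tie1 are shown because the results turn on where the receptors are found together and where Tek is found without Tie1. Each was found at 1 place of GRCm39, the Tek promoter at chr4:94627276-94627575 on the plus strand and the Tie1 promoter at chr4:118346997-118347296 on the minus strand. Both windows lie mostly inside the gene spans given above, so the RefSeq starts differ from the outer ends of these spans. Capitals mark AGGAA, or TTCCT where it lies on the other strand, letters found in the binding motifs of many ETS factors, a family that regulates endothelial genes.
Tek: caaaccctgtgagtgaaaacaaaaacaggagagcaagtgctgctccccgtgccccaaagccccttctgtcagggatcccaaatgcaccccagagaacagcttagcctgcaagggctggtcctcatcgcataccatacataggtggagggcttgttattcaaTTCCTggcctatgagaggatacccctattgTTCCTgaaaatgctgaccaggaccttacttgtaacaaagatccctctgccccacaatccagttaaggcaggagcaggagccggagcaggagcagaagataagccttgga
Tie1: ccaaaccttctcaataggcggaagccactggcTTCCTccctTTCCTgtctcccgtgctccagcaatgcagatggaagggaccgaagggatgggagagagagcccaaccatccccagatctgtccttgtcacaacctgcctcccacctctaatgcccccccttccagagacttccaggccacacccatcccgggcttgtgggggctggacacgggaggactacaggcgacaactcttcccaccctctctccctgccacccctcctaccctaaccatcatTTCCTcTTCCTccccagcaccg
The Tek promoter held 2 such matches and the Tie1 promoter 4. Among 32851 RefSeq promoters, 66.7% held at least 1, 33.7% at least 2 and 4.44% at least 4, so the matches describe the sequence only.

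Where values of several libraries are listed, they follow the order proximal replicates 1 and 2, distal replicates 1 and 2, cecum and large intestine. Classes and libraries are compared for 1 gene at a time, and levels of different genes are not compared.

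**Figure D1:**
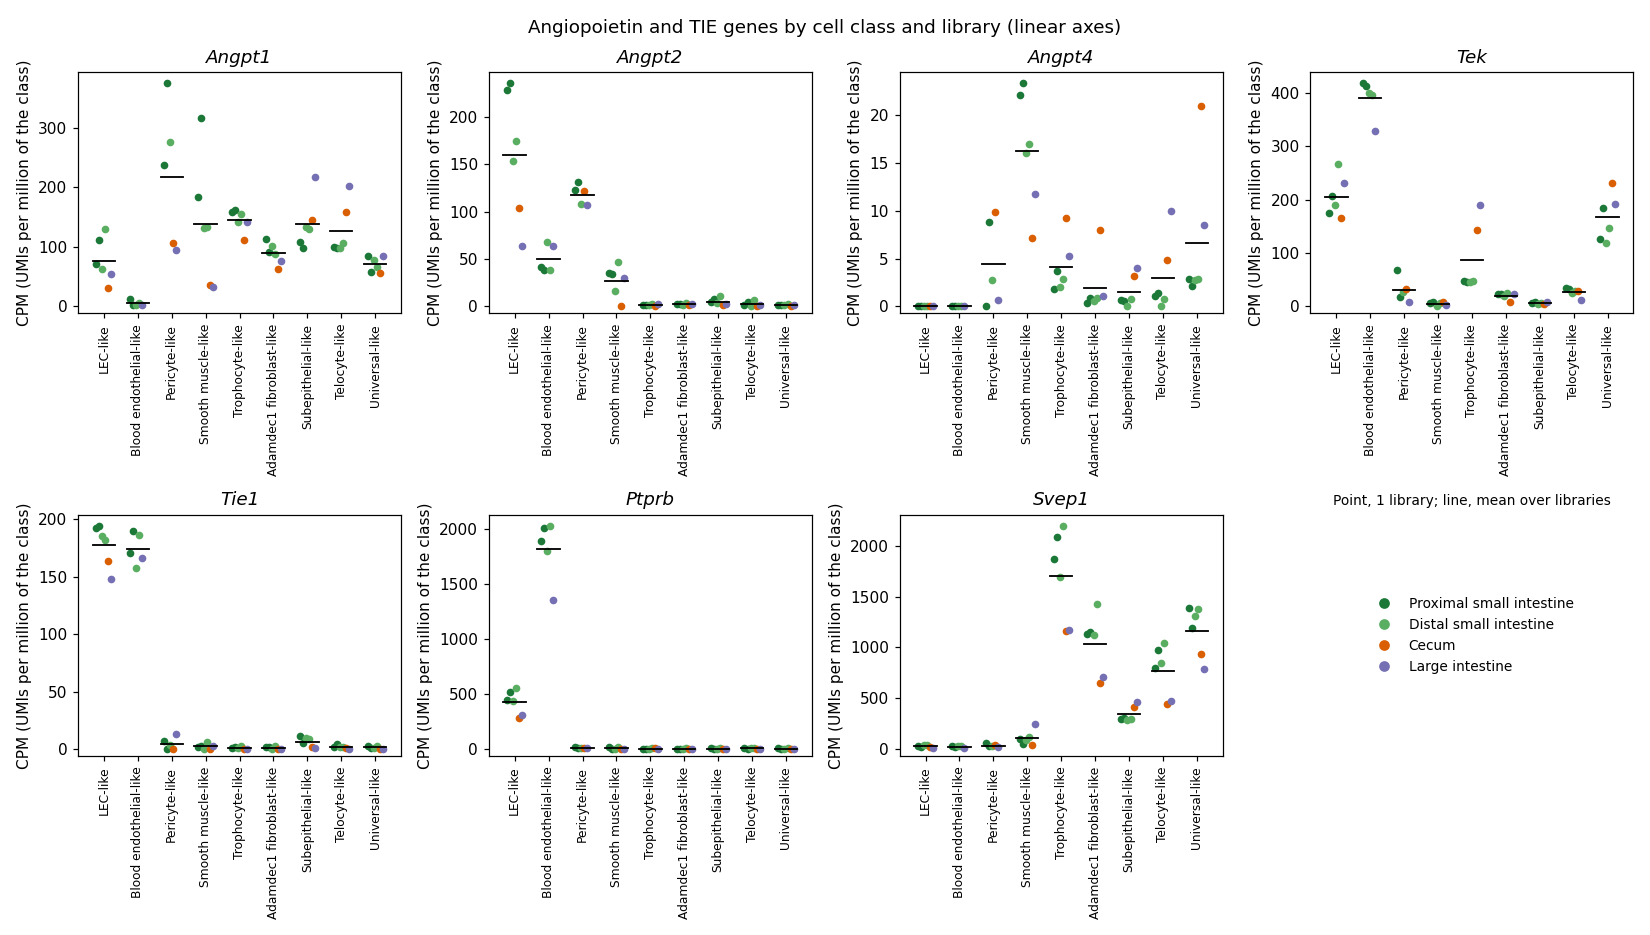
Level of each of the 7 genes in each cell class (CPM), 1 point per library. Tie1 and Ptprb were high in both endothelial classes and low elsewhere, Tek was also found in universal fibroblast-like and trophocyte-like cells, and Svep1 was highest in fibroblast-like classes.

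Both TIE receptors were prominent in LEC-like cells. Tek stood at 175, 206, 189, 266, 165 and 231 CPM, and 52.7% to 71.3% of the LEC-like cells of a library had a UMI of it. Tie1 stood at 192, 194, 185, 182, 164 and 148 CPM and Ptprb, the phosphatase of TIE2, at 441, 515, 434, 558, 280.4 and 312 CPM. The cecum and the large intestine gave the lowest values of Tie1 and Ptprb, whereas the large intestine had the second highest Tek level.

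In fibroblast-like cells Tie1 reached 0.253 to 3.18 CPM and Ptprb 0.583 to 5.53 CPM. The comparison of LEC-like with fibroblast-like cells asks which cells hold the receptors and which the ligands, and placed 4 members higher and 3 lower in LEC-like cells (edgeR quasi-likelihood test on UMI sums with library as a block, Benjamini-Hochberg adjustment over all genes, n = 6 libraries each). Of 17607 genes tested 27.4% were higher and 38.4% lower. Tie1 was higher by 7.21 ± 0.43 on the log2 scale (SE, adjusted p = 9.59e-07), Ptprb by 7.58 ± 0.31 (adjusted p = 9.83e-08) and Tek by 2.01 ± 0.28 (adjusted p = 0.000232), each in 6 of 6 libraries. No source used here says that the libraries came from separate animals, so p-values measure only the spread between these libraries, which may be technical. In sums of this kind, fewer cells with a transcript and less RNA per cell cannot be told apart.

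Angpt2 was the ligand gene that was higher in LEC-like than in fibroblast-like cells. It stood at 229, 236, 153, 175, 104 and 64.2 CPM there and at 1.01 to 4.08 CPM in fibroblast-like cells, a difference of 6.20 ± 0.25 (log2, SE, edgeR, adjusted p = 9.67e-08, higher in 6 of 6 libraries). The small intestinal libraries all lay above the cecum and the large intestine. A UMI of Angpt2 was found in 28.3% to 57.1% of the LEC-like cells of a library and in 0.706% to 3.48% of the fibroblast-like cells. Pericyte-like cells, which wrap small vessels, had 122, 131, 108, 122 and 107 CPM in the 5 libraries with enough cells, a range inside that of the LEC-like cells.

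Angpt1 was found in mural, fibroblast-like and LEC-like cells. LEC-like cells had 70.3, 111, 62.3, 130.2, 30.7 and 53.4 CPM and fibroblast-like cells 130.3, 118, 118, 114, 84.2 and 153 CPM. LEC-like cells were lower in 5 of 6 libraries and higher in distal replicate 2, with a difference of −0.80 ± 0.28 (log2, SE, edgeR, adjusted p = 0.0298). The call was lost by limma-voom (−0.55, adjusted p = 0.0856), without the library block (−0.65, adjusted p = 0.0756), in the small intestinal libraries alone (−0.37, adjusted p = 0.158), and without proximal replicate 1 (−0.79, adjusted p = 0.0694), distal replicate 1 (−0.74, adjusted p = 0.0815), the cecum (−0.66, adjusted p = 0.0729) or the large intestine (−0.60, adjusted p = 0.0729). Angpt1 of LEC-like cells was 34.9% to 114% of the fibroblast-like level of the same library, whereas the fibroblast genes Dcn and Col1a1 stood at 1.30% to 6.69% and 1.66% to 2.82% there. In blood endothelial-like cells Angpt1 was at 2.11 to 12.3 CPM, or 1.78% to 9.43% of the fibroblast-like level.

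Svep1 and Angpt4 were genes of the fibroblast-like cells in this comparison. Svep1 stood at 1424, 1445, 1359, 1536, 723 and 619 CPM in fibroblast-like and 28.7, 20.4, 37.5, 37.2, 20.5 and 11.9 CPM in LEC-like cells, a difference of −5.60 ± 0.15 (log2, SE, edgeR, adjusted p = 1.86e-08, lower in 6 of 6 libraries). The LEC-like level was 1.41% to 2.83% of the fibroblast-like one, near the shares of Dcn and Col1a1. The Svep1 call held under every alternative. Removing free RNA takes the same share from both classes of a library, which widens a difference of this direction and so cannot test it. How much of the LEC-like level was free RNA was not tested. Angpt4 gave 2 UMIs among 96698172 UMIs of LEC-like cells and 2367 among 596652831 of fibroblast-like cells, a ratio of 0.521% (95% exact interval 0.0631% to 1.89%, counting error only). In the small intestinal libraries alone these were 2 among 93500525 and 652 among 417857896, a ratio of 1.37% (0.166% to 4.97%). Angpt4 was called lower in LEC-like cells (edgeR, adjusted p = 2.32e-06).

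**Figure D2:**
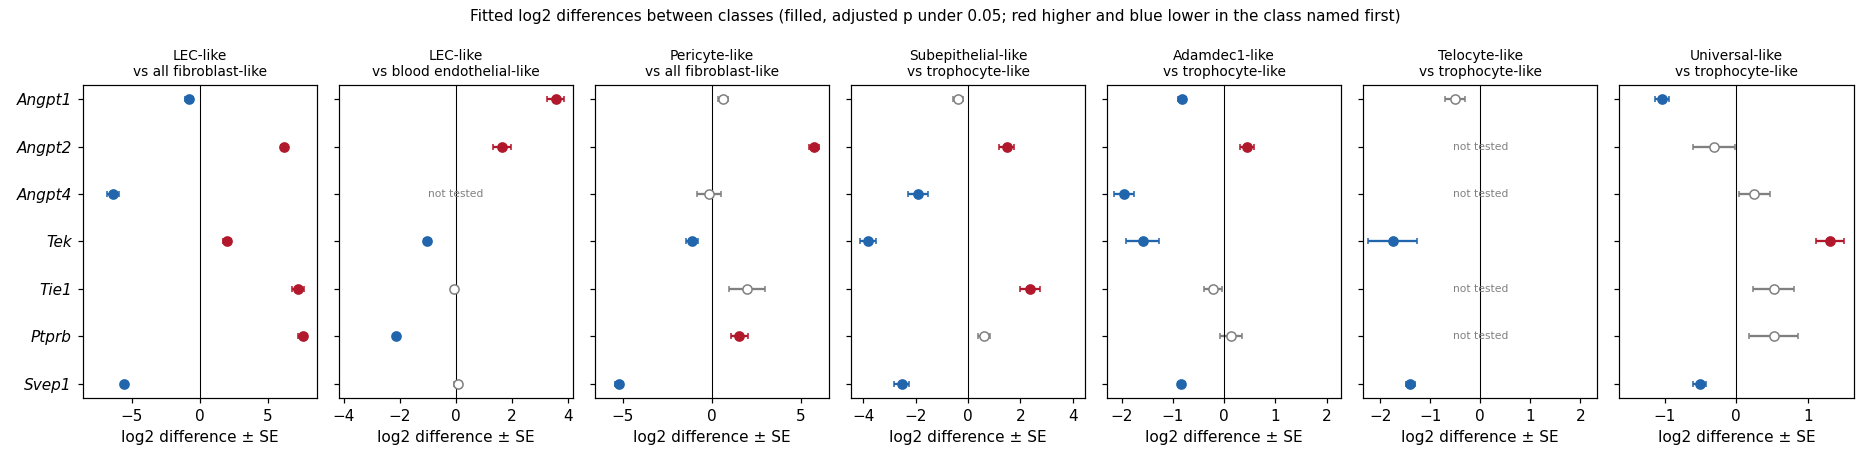
Fitted log2 difference ± SE of each gene in the comparisons of classes, filled where the adjusted p was under 0.05. Receptors and Angpt2 were higher in LEC-like than in fibroblast-like cells, and against blood endothelial-like cells LEC-like cells had less Tek and more Angpt1.

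LEC-like and blood endothelial-like cells differed in Ptprb and Tek. Ptprb was at 1891, 2005, 1802, 2028 and 1352 CPM in the blood endothelial-like cells of the 4 small intestinal libraries and the large intestine, and the LEC-like minus blood endothelial-like difference was −2.15 ± 0.08 (log2, SE, n = 5 libraries, edgeR, adjusted p = 1.06e-08). Tek was at 419, 413, 399.5, 396 and 328 CPM in blood endothelial-like cells, a difference of −1.02 ± 0.12 (adjusted p = 4.26e-05). Neither gene overlapped between the classes, and the share of all genes without overlap was not counted. Tie1, at 157 to 189 CPM in blood endothelial-like cells, did not pass the test (−0.08 ± 0.09, adjusted p = 0.477). Among 11048 genes tested 27% were higher and 28.4% lower in LEC-like cells.

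The ligands went the other way in that comparison. Angpt1 was higher in LEC-like cells by 3.57 ± 0.31 (log2, SE, adjusted p = 5.10e-06) and Angpt2 by 1.65 ± 0.33 (adjusted p = 0.00171, edgeR, each in 5 of 5 libraries). Blood endothelial-like cells had 41.7, 38.6, 67.6 and 37.8 CPM of Angpt2 in the small intestine and 63.4 CPM in the large intestine, where LEC-like cells had 64.2 CPM. The large intestine was the library in which the Angpt2 levels of the endothelial classes lay closest. Svep1 did not pass the test (0.06 ± 0.12, adjusted p = 0.689), but was lower in LEC-like cells when clusters took the place of the marker gates (−0.82, adjusted p = 0.00019).

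Pericyte-like cells held both Angpt1 and Angpt2. Angpt1 was at 238, 375 and 277 CPM in the proximal replicates and distal replicate 2, and 106 and 93.9 CPM in cecum and large intestine. The small intestinal libraries lay above the large bowel ones without overlap, and the share of all genes without overlap was not counted. In the same sums the 6 fibroblast lineage markers stood at 1016, 577 and 692 CPM in the small intestine and 2122 and 1428 CPM in the cecum and large intestine. The pericyte marker Notch3 was at 1607, 1833 and 1706 CPM and at 1030 and 935 CPM, whereas Kcnj8 was higher in both large bowel libraries. The part of these shifts in the Angpt1 values was not tested. The Angpt1 difference from fibroblast-like cells was 0.64 ± 0.27 (log2, SE, n = 5 libraries, edgeR, adjusted p = 0.0953) and did not pass the test. It passed with clusters in place of the gates (1.08, adjusted p = 0.0148) and without the large intestine (0.95, adjusted p = 0.00062). It also passed in the small intestinal libraries alone (1.23, n = 3 libraries, adjusted p = 4.11e-14), where edgeR takes the spread in part from other genes. Of 16374 genes tested 13.7% were higher and 19.2% lower in pericyte-like cells, and 2 members were higher and 2 lower.

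Angpt2 was higher in pericyte-like than in fibroblast-like cells by 5.73 ± 0.27 (log2, SE, adjusted p = 5.47e-09), and Svep1 differed by −5.22 ± 0.21 (adjusted p = 1.94e-09, edgeR). Tek, at 8.66 to 68.5 CPM, differed by −1.11 ± 0.35 (adjusted p = 0.0251), a call lost in the small intestinal libraries alone (−0.40, adjusted p = 0.186), without the cecum (−0.95, adjusted p = 0.0695), by limma-voom (−1.12, adjusted p = 0.0775), with free RNA removed (−1.52, adjusted p = 0.0541) and without the library block (−1.20, adjusted p = 0.0831). Ptprb, at 5.31 to 14.4 CPM, was higher by 1.54 ± 0.47 (adjusted p = 0.0238), a call lost in the small intestinal libraries alone (1.13, adjusted p = 0.108), without proximal replicate 1 (1.41, adjusted p = 0.0749) or the large intestine (1.52, adjusted p = 0.0502) and without the library block (1.52, adjusted p = 0.0601). The 6 blood endothelial markers summed to 37.2 to 426 CPM in pericyte-like and 15.7 to 34.5 CPM in fibroblast-like cells, and their part in the Ptprb value was not tested. Angpt4 (−0.18 ± 0.67, adjusted p = 0.876) and Tie1 (1.97 ± 1.00, adjusted p = 0.154) did not pass, although with clusters in place of the gates Angpt4 was higher (2.38, adjusted p = 0.0231) and with a stricter gate Tie1 was (2.71, adjusted p = 0.0295). In smooth muscle- or myofibroblast-like cells, which were not tested, Angpt4 was at 22.1, 23.4, 16.04, 17.02, 7.11 and 11.8 CPM, where the cecum value was 1 UMI, and Angpt1 ranged from 32.3 to 316 CPM.

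Fibroblast-like classes differed in Tek. Universal fibroblast-like cells had Tek at 126, 184, 119, 147, 231 and 192 CPM, and 50.3% to 68.1% of them had a UMI of it. Their median depth was 7563 to 10630 UMIs, against 4560.5 to 7271.5 in LEC-like cells. The shares of these classes are thus not at equal depth. Trophocyte-like cells had 46.9, 45.3, 46.3 and 47.8 CPM in the small intestine, and 143 and 189.5 CPM in cecum and large intestine. The universal range lay above all small intestinal trophocyte-like values, and in the large intestine the classes were almost level. The difference was 1.30 ± 0.20 (log2, SE, n = 6 libraries, edgeR, adjusted p = 0.00045, higher in 6 of 6 libraries), but it was not called when clusters took the place of the gates (0.33, adjusted p = 0.341) or without the library block (1.13, adjusted p = 0.118). Of 14219 genes tested 13.8% were higher and 11.2% lower in universal fibroblast-like cells.

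Tek of fibroblast-like cells was not matched by the other endothelial genes. In universal fibroblast-like cells Tek stood at 55.03% to 139.6% of the LEC-like level of the same library, Tie1 at 0.0189% to 1.66%, Ptprb at 0.110% to 1.69%, Pecam1 (an endothelial adhesion molecule) at 0.179% to 2.49% and Cdh5 (VE-cadherin) at 0.0374% to 1.58%. A UMI of at least 1 of 7 endothelial genes (Pecam1, Cdh5, Mmrn1, Reln, Cldn5, Tie1 and Ptprb) was found in 2.89% of the universal fibroblast-like cells of the cecum with a Tek UMI and in 2.44% of those without. In distal replicate 2, where 31.95% of all cells were LEC-like, these shares were 62.5% and 57.3%. The share was higher with Tek in proximal replicate 2 (50.5% against 42.3%) and distal replicate 1 (13.3% against 11.3%) and lower in proximal replicate 1 (32.6% against 37.4%) and the large intestine (5.13% against 5.76%), so the share with such a UMI differed more between libraries than between cells with and without Tek. In trophocyte-like cells it was higher with Tek in 5 of 6 libraries, as in proximal replicate 1 (34.1% against 30.5%) and the large intestine (6.25% against 5.41%), and lower in distal replicate 1 (13.2% against 13.5%). Cells with a Tek UMI were also deeper, with medians of 7997 against 6526.5 UMIs in the cecum. Subepithelial fibroblast-like cells had 4.95 to 7.57 CPM of Tek, or 2.34% to 3.68% of the LEC-like level.

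**Figure D3:**
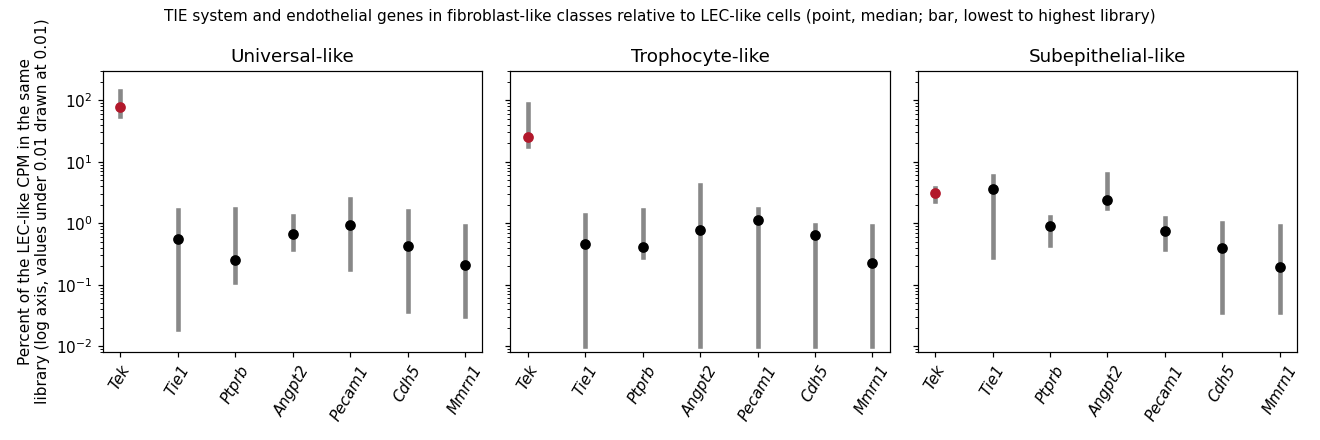
Levels of Tek and other endothelial genes in fibroblast-like classes as a percent of the LEC-like level of the same library (log scale, 6 libraries). Tek stood at 55.03% to 139.6% in universal fibroblast-like cells, where Pecam1 reached at most 2.49%.

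Svep1 was high in every fibroblast-like class and highest in trophocyte-like cells, at 1874, 2087, 1698, 2199, 1159.6 and 1177 CPM. Subepithelial fibroblast-like cells had 298, 304, 286, 298, 417 and 465 CPM, a difference of −2.54 ± 0.27 (log2, SE, edgeR, adjusted p = 9.58e-05), without overlap. The share of all genes without overlap was not counted. Telocyte-like (−1.40 ± 0.09, adjusted p = 1.42e-05), Adamdec1 (−0.83 ± 0.08, adjusted p = 6.09e-05) and universal fibroblast-like cells (−0.51 ± 0.09, adjusted p = 0.00111) differed from trophocyte-like cells by less. All of these were lower in 6 of 6 libraries, and the last was not called without the library block (−0.52, adjusted p = 0.137). The cecum held 35 and the large intestine 117 trophocyte-like cells, against at least 2232 in a small intestinal library.

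The shares of all genes called higher and lower than in trophocyte-like cells were 23% and 23.5% for subepithelial, 15.2% and 18.1% for Adamdec1 and 12.1% and 15.2% for telocyte-like cells. Tek was lower in all 3, by differences of −3.83 ± 0.31 in subepithelial (adjusted p = 1.67e-05), −1.59 ± 0.32 in Adamdec1 (adjusted p = 0.00455) and −1.75 ± 0.49 in telocyte-like cells (adjusted p = 0.0273, edgeR). The telocyte call was lost without the cecum (−1.63, adjusted p = 0.0619) or distal replicate 1 (−1.83, adjusted p = 0.053). Trophocyte-like cells had 159, 162, 141, 155, 111 and 141 CPM of Angpt1 and subepithelial fibroblast-like cells 108, 97.2, 134, 130.3, 146 and 217 CPM, below them in the small intestine and above them in the large bowel. Angpt1 was lower in universal (−1.03 ± 0.09, adjusted p = 8.27e-06) and Adamdec1 fibroblast-like cells (−0.82 ± 0.07, adjusted p = 6.09e-05) in 6 of 6 libraries, and did not pass in subepithelial (−0.39 ± 0.20, adjusted p = 0.139) or telocyte-like cells (−0.51 ± 0.19, adjusted p = 0.0825). In the small intestinal libraries alone both of the latter passed (−0.71, adjusted p = 0.000967, and −0.87, adjusted p = 7.68e-06), as they did without the large intestine (−0.58, adjusted p = 0.0169, and −0.71, adjusted p = 0.00424). The subepithelial difference also passed with clusters in place of the gates (−0.72, adjusted p = 0.00545), and the telocyte one by limma-voom (−0.55, adjusted p = 0.0489) and without the cecum (−0.63, adjusted p = 0.0373).

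The scarcer members gave small values in fibroblast-like classes. Tie1 was higher in subepithelial than in trophocyte-like cells by 2.35 ± 0.38 (log2, SE, edgeR, adjusted p = 0.00105), at 11.4, 5.24, 9.90, 8.45, 2.06 and 0.422 CPM against 0 to 2.44 CPM. Trophocyte-like cells of the cecum and large intestine held 0 UMIs, which allows up to 13.9 and 2.64 CPM (counting error only). These limits lie above the subepithelial values of the same libraries, which therefore cannot show a difference. The 6 blood endothelial markers summed to 11.4 to 224 CPM in subepithelial and 9.24 to 21.8 CPM in trophocyte-like cells, and their part in the Tie1 value was not tested. Pecam1 was at 4.41 ± 2.13 against 5.12 ± 4.34 CPM and Cdh5 at 2.21 ± 1.96 against 2.57 ± 1.81 CPM in these classes (mean ± SD, n = 6). Without the library block Tie1 was not called (1.87, adjusted p = 0.0506). Angpt2 was higher by 1.48 ± 0.29 in subepithelial (adjusted p = 0.00318, 5 of 6 libraries) and 0.44 ± 0.14 in Adamdec1 fibroblast-like cells (adjusted p = 0.0337), with no level over 10.97 CPM. The cecum counts among the 5 on 0 UMIs of Angpt2 in trophocyte-like cells, which again allows up to 13.9 CPM. The subepithelial call was lost with a stricter gate (1.10, adjusted p = 0.0777) and without the library block (1.23, adjusted p = 0.0606). The Adamdec1 call was lost by limma-voom (0.35, adjusted p = 0.113), with doublets kept (0.34, adjusted p = 0.106), with a stricter gate (0.33, adjusted p = 0.149), with clusters in place of the gates (0.35, adjusted p = 0.126) and without the library block (0.34, adjusted p = 0.53). It was also lost without any 1 of the 4 small intestinal libraries (proximal replicate 1, 0.48, adjusted p = 0.0805; proximal replicate 2, 0.47, adjusted p = 0.0797; distal replicate 1, 0.39, adjusted p = 0.129; distal replicate 2, 0.39, adjusted p = 0.136). Angpt4 was lower in both classes (−1.92 ± 0.38, adjusted p = 0.00324, and −1.96 ± 0.20, adjusted p = 0.000105), though not without the library block (−0.87, adjusted p = 0.308, and −0.70, adjusted p = 0.653). Ptprb did not pass between subepithelial and trophocyte-like cells (0.62 ± 0.23, edgeR, adjusted p = 0.0507, higher in 5 of 6 libraries), but did under 3 alternatives (0.60 to 0.69, adjusted p = 0.0279 to 0.0332). In telocyte-like cells Tie1, Ptprb, Angpt2 and Angpt4 had too few counts to be tested.

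Other genes of the pathway came from a list of 25 (signaling, adaptor, integrin, junction and transcription factor genes) and a list of 6 angiopoietin-like genes. In LEC-like against fibroblast-like cells 14 of the 25 were higher and 4 lower, beside 27.4% and 38.4% of all genes, with a median of 0.52 against −0.12 over all genes (log2). The highest were Bmx, a kinase of endothelial cells (8.25 ± 0.39, adjusted p = 2.32e-07), Cdh5 (8.08 ± 0.54, adjusted p = 2.02e-06), the transcription factor gene Gata2 (7.10 ± 0.47, adjusted p = 1.86e-06) and Foxc2, which lymphatic valves need (6.68 ± 0.38, adjusted p = 7.48e-07, edgeR). Among the lower ones were Akt2 (−1.80 ± 0.09), Pik3r1 (−1.44 ± 0.15) and Tnip2 (−1.14 ± 0.08), which act in signaling inside the cell. Of the 6 angiopoietin-like genes 4 were lower, with Angptl1 (−4.93 ± 0.20) and Angptl2 (−4.02 ± 0.37) lower in 6 of 6 libraries.

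Against blood endothelial-like cells 8 of 24 pathway genes were higher and 11 lower in LEC-like cells, beside 27% and 28.4% of all genes, with a median of −0.14 against 0.02 over all genes. Itga9, an integrin subunit of lymphatic valves (3.30 ± 0.11, adjusted p = 4.10e-09), Foxc2 (2.70 ± 0.22), the adaptor gene Shc1 (1.48 ± 0.13) and Pear1 (1.46 ± 0.09) were highest. Grb14 (−5.64 ± 0.38), Nos3, which makes nitric oxide in endothelium (−2.44 ± 0.12), Gata2 (−2.06 ± 0.11) and the flow-induced Klf2 (−1.99 ± 0.16) were lowest, each in 5 of 5 libraries. Angptl4 was the angiopoietin-like gene called (2.48 ± 0.35, adjusted p = 0.000185, edgeR). In pericyte-like against fibroblast-like cells 7 of 22 were higher and 4 lower, beside 13.7% and 19.2% of all genes, with a median of 0.15 against −0.16. They included Plxnd1 (2.35 ± 0.24) and Pear1 (2.28 ± 0.14) among the higher and Itga9 (−1.999 ± 0.24) and Akt2 (−0.92 ± 0.17) among the lower, and 3 of 6 angiopoietin-like genes were lower, Angptl1 (−5.76 ± 0.28) the most.

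Within the fibroblast-like classes, Foxo1, a transcription factor that AKT keeps out of the nucleus and that induces Angpt2 in endothelium, was lower than in trophocyte-like cells, which all of these comparisons share, with differences of −2.12 ± 0.10 in subepithelial, −1.46 ± 0.19 in telocyte-like, −0.79 ± 0.14 in Adamdec1 and −0.32 ± 0.07 in universal fibroblast-like cells. The list had 5 higher and 6 lower of 19 tested in subepithelial, 4 and 6 of 19 in Adamdec1, 3 and 6 of 18 in telocyte-like and 5 and 4 of 20 in universal fibroblast-like cells. The shares of all genes were 23% and 23.5%, 15.2% and 18.1%, 12.1% and 15.2%, and 13.8% and 11.2% in the same order. The medians of the list were −0.11, −0.05, 0.10 and −0.05, beside 0.0125, 0.0156, 0.0169 and 0.00485 over all genes. Klf2 was lower in subepithelial (−2.28 ± 0.14) and telocyte-like cells (−1.54 ± 0.14) and higher in universal fibroblast-like cells (0.67 ± 0.09). Of the angiopoietin-like genes Angptl1 was lower in subepithelial (−4.52 ± 0.61) and telocyte-like cells (−2.55 ± 0.62).

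For each member the genes whose levels were most like its own over 58 sums of a class in a library were looked up among 12590 genes outside the gate markers. The measure is Pearson's r of log2(CPM + 1), a description without a test, since the sums of 1 library share its depth and free RNA. Tie1 was most like Myct1 (0.955), Inpp5d (0.955) and Afap1l1 (0.953), Ptprb Clic5 (0.966), S1pr1 (0.963) and Sox18 (0.960) and Tek Sntb2 (0.908), Elf4 (0.898) and Fgd5 (0.879). Angpt2 was most like Apold1 (0.935), Nudt4 (0.932) and Cds2 (0.916), Angpt1 Cacna2d1 (0.884), Pard3 (0.870) and Clip3 (0.856) and Angpt4 Mrgprf (0.840), Dmpk (0.812) and Ckb (0.799). Svep1 was most like Naaladl2 (0.974), Hmcn2 (0.963) and Lpar1 (0.960). The values were lowest for Angpt4, the member with few UMIs.

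Between the small intestinal regions no member was called without a replicate block. In LEC-like cells of the proximal and distal small intestine Angpt2 was at 233 ± 5.01 and 164 ± 14.95 CPM (mean ± SD, n = 2 each), a difference of −0.52 ± 0.14 (log2, SE, edgeR, adjusted p = 0.999891). Svep1 was at 24.5 ± 5.90 and 37.3 ± 0.221 CPM, with 0.60 ± 0.18. Neither overlapped between the regions, and nor did Tie1 (192 to 194 CPM in the proximal and 182 to 185 CPM in the distal libraries). With 2 libraries per region, the share of all genes without overlap was not counted. Of 15211 genes 0% were called higher and 0% lower by edgeR, while 554 had an unadjusted p under 0.05, 2 members (Angpt2 and Svep1) among them, and limma-voom called 0 and DESeq2 28 genes. In fibroblast-like cells 0.00528% of 18931 genes were called higher and 0.00528% lower, or 2 genes in all (687 at an unadjusted p under 0.05, 0 called by limma-voom and 151 by DESeq2), with no member at an unadjusted p under 0.05. Svep1 was at 1435 ± 14.9 and 1448 ± 125 CPM and Tek at 40.1 ± 2.05 and 39.4 ± 0.661 CPM there. Of the pathway list 0 genes were called in either class.

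In LEC-like cells, 3 members were lower in the large bowel (cecum and large intestine) than in the 4 small intestinal libraries. Angpt2 was at 84.1 ± 28.1 against 198 ± 40.6 CPM (mean ± SD), a difference of −1.29 ± 0.26 (log2, SE, edgeR, adjusted p = 0.00811). Ptprb was at 296 ± 22.2 against 487 ± 60.04 CPM (−0.74 ± 0.15, adjusted p = 0.00933) and Angpt1 at 42.02 ± 16.04 against 93.5 ± 32.5 CPM (−1.15 ± 0.35, adjusted p = 0.0426). None of the 3 overlapped between the groups, and nor did Tie1 (148 and 164 against 182 to 194 CPM). The share of all genes without overlap was not counted. Tek (−0.10 ± 0.19, adjusted p = 0.749), Tie1 (−0.30 ± 0.12, adjusted p = 0.116) and Svep1 (−1.02 ± 0.36, adjusted p = 0.0718) did not pass the test. Svep1 passed by DESeq2 (−0.98, adjusted p = 0.0251), without the filter on low counts (−1.09, adjusted p = 0.000692), against the small intestinal replicates numbered 1 (−1.08, adjusted p = 0.0155) and without proximal replicate 2 (−1.16, adjusted p = 0.0162). Markers of other vessel cells were lower in the same LEC-like sums, the 6 pericyte markers at 242, 226, 259, 284, 52.8 and 33.1 CPM and the 6 blood endothelial markers at 837, 872, 833, 837, 729 and 511 CPM, and their part in these values was not tested. Nor was that of the lymphatic gate markers, which also moved. Ccl21a was at 2254 to 4127 CPM in the small intestine and 11493 and 11348 CPM in the cecum and large intestine, and Reln at 4203 to 4888 and 2077 and 2015 CPM. Lyve1 was also higher in both large bowel libraries, and Prox1, Mmrn1 and Flt4 were also lower. Of 13767 genes 9.36% were called higher and 10.1% lower. Region and library cannot be told apart where a region has 1 library.

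These calls rested on few libraries. Angpt2 lost its call without the large intestine (−0.99, adjusted p = 0.0786) and Ptprb without the cecum (−0.72, adjusted p = 0.0761). Angpt1 was lower in the small intestinal replicates numbered 1 (70.3 and 62.3 CPM) than in those numbered 2 (111 and 130.2 CPM), and against the former alone the large bowel difference was not called (−0.61, adjusted p = 0.075). It was also lost without proximal replicate 2 (−1.03, adjusted p = 0.0634), distal replicate 2 (−0.93, adjusted p = 0.0642), the cecum (−0.91, adjusted p = 0.238) or the large intestine (−1.67, adjusted p = 0.096). By limma-voom Angpt1 was not called (−1.06, adjusted p = 0.115). Ptprb against the replicates numbered 1 was not called either (−0.55, adjusted p = 0.0759).

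In the pathway list 2 of 23 genes were higher in LEC-like cells of the large bowel, Klf2 (1.74 ± 0.27, adjusted p = 0.00233) and Foxc2 (0.78 ± 0.24, adjusted p = 0.0449), and 6 were lower, beside 9.36% and 10.1% of all genes, with a median of −0.11 against −0.02 over all genes. The lowest were Plxnd1 (−1.07 ± 0.16), Itga9 (−0.87 ± 0.13), Pik3r1 (−0.70 ± 0.15) and Pear1 (−0.68 ± 0.14). Among the angiopoietin-like genes Angptl2 was higher (2.19 ± 0.25, adjusted p = 0.000425) and Angptl1 lower (−1.67 ± 0.43, adjusted p = 0.0239, edgeR).

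**Figure D4:**
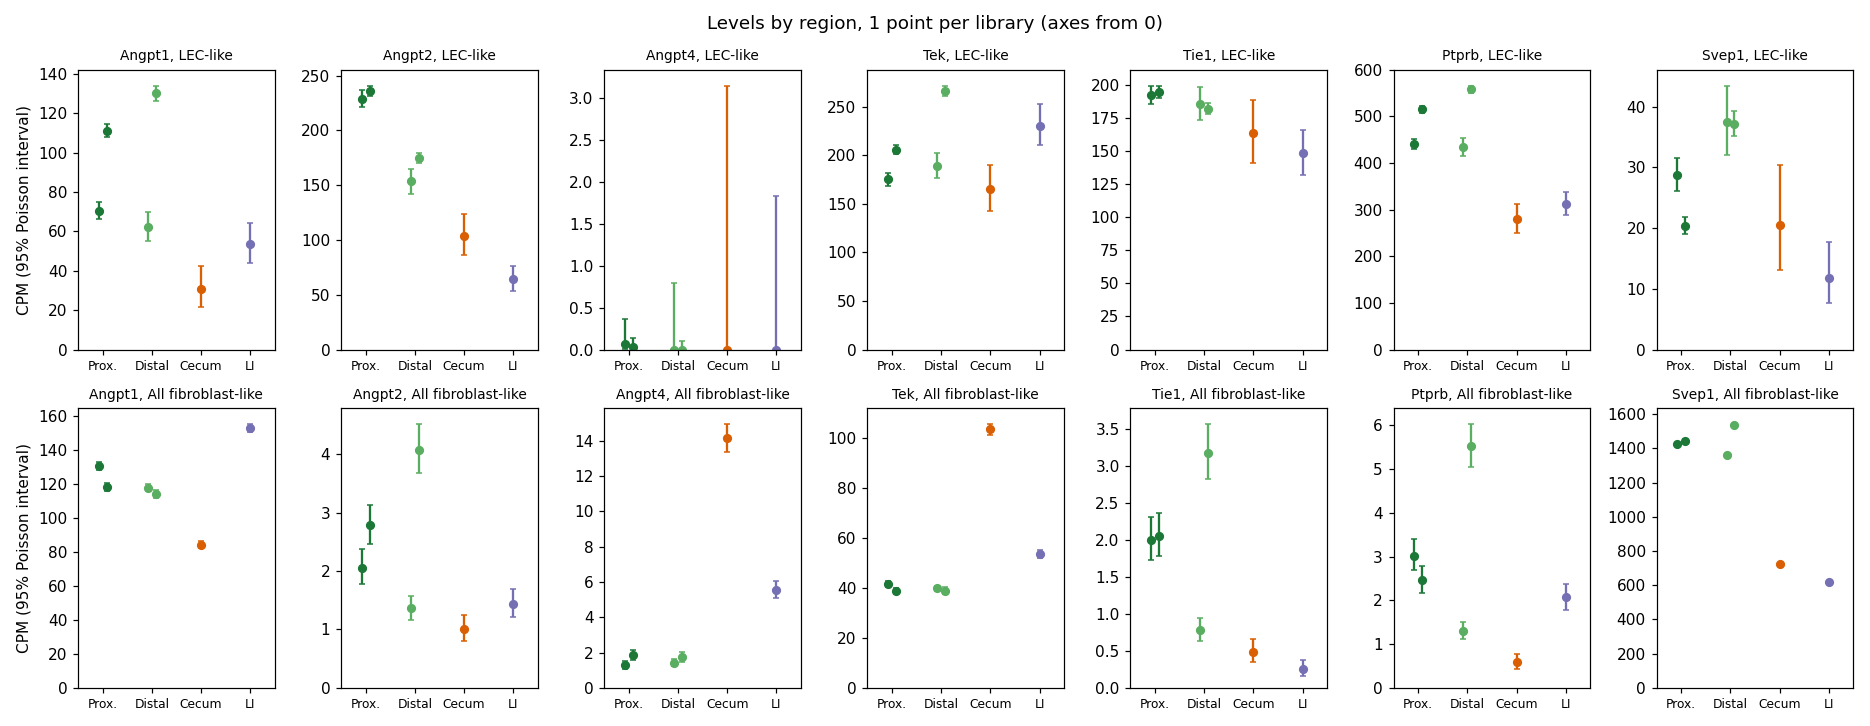
Level of each gene (CPM, with the 95% Poisson interval, which covers counting error only) by region, 1 point per library, in LEC-like and in all fibroblast-like cells. Angpt2 and Ptprb of LEC-like cells and Svep1 of fibroblast-like cells were lower in both large bowel libraries than in every small intestinal library, and Angpt4 of fibroblast-like cells was higher.

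Fibroblast-like cells of the large bowel had more Angpt4 and Tek and less Svep1 and Tie1, where 15.9% of all 19459 genes were called higher and 14.3% lower. Angpt4 was at 1.28, 1.86, 1.41 and 1.75 CPM in the small intestine, and 14.1 and 5.54 CPM in cecum and large intestine, a difference of 2.71 ± 0.36 (log2, SE, edgeR, adjusted p = 0.0041). Svep1 was at 671 ± 73.7 against 1441 ± 72.99 CPM (−1.06 ± 0.17, adjusted p = 0.00692). Tek was at 104 and 53.6 CPM in the cecum and large intestine against 38.7 to 41.6 CPM (1.04 ± 0.25, adjusted p = 0.0226). These 3 and Tie1, whose values are given below, did not overlap between the groups, and the share of all genes without overlap was not counted. Against the small intestinal replicates numbered 1 alone, Svep1 (−1.06, adjusted p = 0.0611) and Tek (0.95, adjusted p = 0.138) were not called. Angpt2 (−1.02 ± 0.41, adjusted p = 0.0953) and Ptprb (−1.17 ± 0.64, adjusted p = 0.194) did not pass, but Angpt2 did by DESeq2 (−1.004, adjusted p = 0.0421), without distal replicate 1 (−1.19, adjusted p = 0.0421) and within subepithelial fibroblast-like cells (−1.72, adjusted p = 0.0256). Angpt2 changed sign, without passing, with free RNA removed (2.55) and within trophocyte-like cells (0.39). The lymphatic marker sums of these cells, given below beside Tie1, also differed between libraries, and their part in the Angpt2 value was not tested. Ptprb passed within Adamdec1 fibroblast-like cells (−3.68, adjusted p = 0.0265), on 1 and 3 UMIs in the cecum and large intestine.

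The makeup of the fibroblast-like cells moved with these values, and its part in them was looked at within classes, a choice made after the data had been seen. Universal fibroblast-like cells were 1.91% to 5.89% of the cells of a small intestinal library, 31.4% of the cecum and 14.3% of the large intestine, whereas trophocyte-like cells were 12.4% to 31.1%, 0.268% and 1.05%. Within trophocyte-like cells Tek was higher in the large bowel (1.90, adjusted p = 0.0006, edgeR), at 166 ± 32.7 against 46.6 ± 1.09 CPM, with 35 and 117 such cells in the cecum and large intestine. The gate marker Dkk2 was at 684 to 1242 CPM in the small intestine and at 4.62 and 76.7 CPM in the cecum and large intestine, the gate marker Sfrp1 at 2115 to 2614 and 1275 and 1101 CPM, and 14.1 to 19.4% of the cells of a small intestinal library lay near the border, against 31.4% and 27.4%. Tek was not called within universal (0.67, adjusted p = 0.0691), subepithelial (0.17, adjusted p = 0.627), Adamdec1 (−0.61, adjusted p = 0.224) or telocyte-like cells (−0.69, adjusted p = 0.163). The Tek call over all fibroblast-like cells was lost without the cecum (0.43, adjusted p = 0.0627), proximal replicate 1 (1.08, adjusted p = 0.0541), proximal replicate 2 (1.01, adjusted p = 0.0591) or distal replicate 2 (1.01, adjusted p = 0.0543).

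Svep1 was lower in the large bowel within telocyte-like (−0.92, adjusted p = 0.0109) and Adamdec1 fibroblast-like cells (−0.75, adjusted p = 0.0186, edgeR), as over all fibroblast-like cells. It was not called within trophocyte-like (−0.75, adjusted p = 0.076), at 1168 ± 12.1 against 1964 ± 223 CPM, or universal fibroblast-like cells (−0.50, adjusted p = 0.13), and was higher in the large bowel within subepithelial ones (0.74, adjusted p = 0.00438). Its levels in subepithelial cells were 298, 304, 286 and 298 CPM in the small intestine and 417 and 465 CPM in the large bowel. Of the markers of that gate, Procr stood at 48.0 to 61.8 CPM in the small intestine and 150 and 279 CPM in the cecum and large intestine. Agt and Nrg1 were also higher in both large bowel libraries, whereas Wnt4 and Sox6 overlapped. Angpt4 was higher in the large bowel within universal (2.62, adjusted p = 0.0124), subepithelial (2.81, adjusted p = 0.00413) and Adamdec1 fibroblast-like cells (2.89, adjusted p = 0.0179) and was not called within trophocyte-like ones (1.24, adjusted p = 0.319). In Adamdec1 fibroblast-like cells it was at 0.368 to 0.909 CPM in the small intestine, 7.95 CPM in the cecum and 1.07 CPM (7 UMIs) in the large intestine. Subepithelial fibroblast-like cells held 0 to 5 UMIs of Angpt4 in a small intestinal library. Angpt1, not called over all fibroblast-like cells (0.01 ± 0.21, adjusted p = 0.983), was higher in the large bowel within subepithelial (0.79, adjusted p = 0.0177) and telocyte-like cells (0.93, adjusted p = 0.00417, edgeR). The telocyte gate markers moved as well, Foxl1 at 31.7 to 46.8 CPM in the small intestine and 99.1 and 108 CPM in the cecum and large intestine. Bmp7, Bmp3 and Wnt5a were also higher in both large bowel libraries, and Lgr5 was lower (31.2 to 212 against 26.0 and 21.4 CPM). The part of such marker shifts in the values within the telocyte and subepithelial gates was not tested.

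Tie1 of fibroblast-like cells was at 2.00, 2.06, 0.778 and 3.18 CPM in the small intestine and 0.487 and 0.253 CPM in the cecum and large intestine (−2.36 ± 0.58, adjusted p = 0.024). Cdh5 was lower as well (−3.02 ± 0.74, adjusted p = 0.0233, edgeR), the 6 lymphatic markers summed to 53.5, 87.2, 20.6, 138, 13.7 and 25.7 CPM in the same cells, and LEC-like cells were 3.79% to 31.95% of a small intestinal library, 1.70% of the cecum and 2.18% of the large intestine. Their part in the Tie1 value was not tested. Without proximal replicate 1 (−2.33, adjusted p = 0.0572), proximal replicate 2 (−2.35, adjusted p = 0.0536) or the large intestine (−1.91, adjusted p = 0.0991) Tie1 was not called. It was lower within subepithelial (−2.70, adjusted p = 0.0129) and universal fibroblast-like cells (−4.22, adjusted p = 0.0237, on 1 and 3 UMIs in the cecum and large intestine) and was not called against the replicates numbered 1 (−1.89, adjusted p = 0.106) or within Adamdec1 fibroblast-like cells (−2.58, adjusted p = 0.0932), nor within trophocyte-like cells, which held 0 UMIs of Tie1 in the cecum and large intestine (adjusted p = 0.5).

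Of the pathway list 4 of 25 genes were higher in fibroblast-like cells of the large bowel, Itga5 (1.04 ± 0.12), Plxnd1 (0.64 ± 0.14), Akt1 (0.62 ± 0.10) and Shc1 (0.35 ± 0.09), and 9 were lower, with Cdh5, Bmx (−2.98 ± 0.88), Gata2 (−2.62 ± 0.81) and Foxo1 (−1.26 ± 0.24) the lowest, beside 15.9% and 14.3% of all genes. Cdh5 and Bmx are genes of endothelial cells, at 2.37 ± 2.13 CPM of Cdh5 in fibroblast-like against 453 ± 94.9 CPM in LEC-like cells (mean ± SD, n = 6), and the part of the lymphatic marker sums and LEC-like shares given beside Tie1 in these values was not tested. The median was −0.26 against −0.01 over all genes. Angptl1 was lower by a log2 difference of −3.58 ± 0.31 (edgeR, adjusted p = 0.00112). Both Foxo1 and Angptl1 were lower in subepithelial and telocyte-like than in trophocyte-like cells. The latter were 12.4% to 31.1% of a small intestinal library, 0.268% of the cecum and 1.05% of the large intestine, and the part of this makeup was not tested.

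Whether the change from small intestine to large bowel differed between LEC-like and fibroblast-like cells was tested in 1 model of both classes, added after the data had been seen. Of 17607 genes 3.13% had a change that was higher and 10.5% one that was lower in LEC-like cells. Tie1 was the member called (1.85 ± 0.50, adjusted p = 0.0432, edgeR). Angpt1 (−1.31 ± 0.42, adjusted p = 0.074), Tek (−1.18 ± 0.38, adjusted p = 0.078), Angpt2 (−0.51 ± 0.43, adjusted p = 0.494), Ptprb (0.25 ± 0.50, adjusted p = 0.794) and Svep1 (−0.06 ± 0.30, adjusted p = 0.921) did not pass, and neither did Angpt4, which had 2 UMIs in LEC-like cells.

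LEC-like cells lay mainly in 2 clusters, made without the members, whose levels are given as a description. One, with 6800 LEC-like cells, was led by Apold1 and Depp1, and the other, with 7649, by Tll1 and Pld5. Angpt2 was at 311, 306, 227, 251, 131 and 97.8 CPM in the former and 149, 139.8, 114, 121, 57.6 and 48.3 CPM in the latter, higher in the former in every library. Angpt1 was lower in the former in every library (21.7 to 98.5 against 48.00 to 153 CPM), and so was Tek (149 to 204 against 186 to 310.5 CPM). In both clusters Angpt2 was lower in the cecum and the large intestine than in every small intestinal library. Fos, an immediate early gene chosen after its values had been seen, was at 2179.9 to 4467 CPM in the former and 180.3 to 343 CPM in the latter, and its part in these differences was not tested. Apold1, which led the former cluster, was also the gene most like Angpt2 (0.935), so the Angpt2 difference may not be independent of the split. No share of all genes is given beside the library counts.

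**Figure D5:**
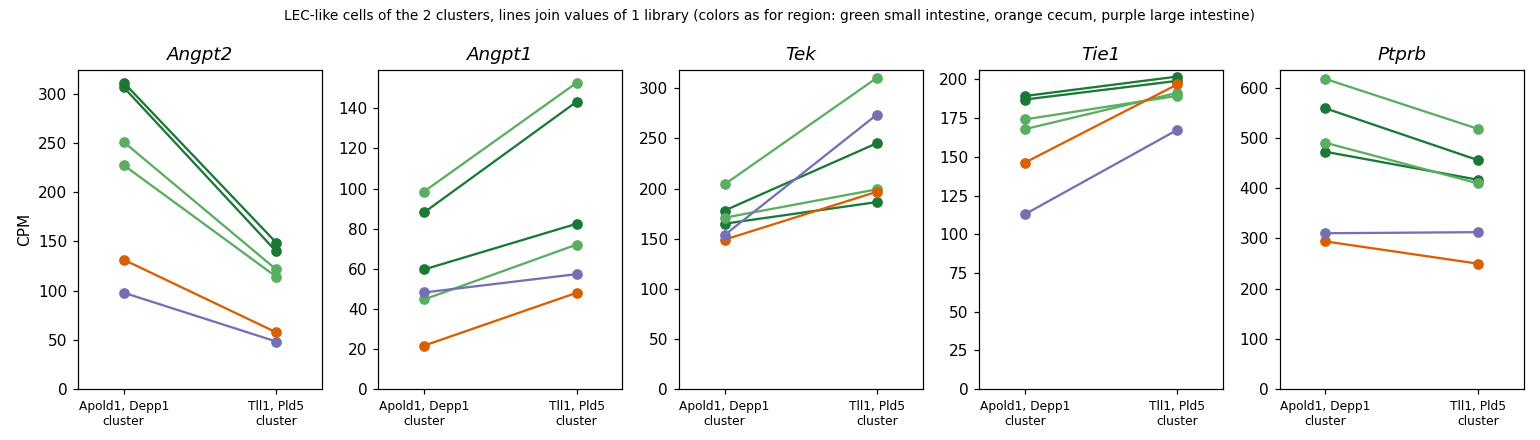
Levels of members (CPM) in LEC-like cells of the clusters led by Apold1 and Depp1 and by Tll1 and Pld5, with lines joining the values of 1 library. Angpt2 was higher and Angpt1 and Tek were lower in the former in each of the 6 libraries. Apold1 was also the gene most like Angpt2 over the sums of a class in a library.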

How the data were processed

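Live tdTomato+ lamina propria cells were profiled by droplet single-cell RNA-seq in 6 libraries. The deposited values are raw UMI counts per gene and barcode, made by the authors with Cell Ranger (8.1.0 per the labels, 8.0.1 per the matrix header) on mm39, with every barcode kept. Cells had 1000 to 7500 genes, 2500 to 40000 UMIs and at most 10% mitochondrial UMIs, and predicted doublets (4.91% to 11.4% of a library) were removed. Barcodes with at most 100 UMIs held 2.90% to 3.82% of the UMIs and gave the free RNA profile. Classes were gated on markers, with thresholds set after seeing the data. The Adamdec1 gate rests mainly on 2 markers in the cecum and large intestine.

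UMI counts were summed per library and class and tested with edgeR 4.0.16 in R 4.3.3 (quasi-likelihood, TMM, filterByExpr with a minimum count of 10, Benjamini-Hochberg threshold 0.05), with library as a block between classes. The SE is the log2 difference over the root of F. Alternatives used limma 3.58.1, DESeq2 1.42.0, scanpy 1.11.5 clusters, other filters and gates, free RNA removal and left-out libraries. The scripts were tested on simulated data. Named genes were the members, up to 4 genes per direction of the pathway lists with the largest change in 1 direction in every library, and the 3 genes most like each member. The members and lists were chosen with earlier results of these data known. The hashtags of each library were not used, since no source used here ties them to mice.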

Additional observations from a re-analysis of the deposited data

Results flagged for a closer look

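Among 35 sets of 4 small intestinal levels, 2 held a library far from the others, and chance alone gives about 1 in 20 sets. Angpt2 of blood endothelial-like cells was at 67.6 CPM in distal replicate 1, against 37.8 to 41.7 CPM in the other 3 small intestinal libraries. Svep1 of Adamdec1 fibroblast-like cells was at 1429.9 CPM in distal replicate 2, against 1122 to 1157 CPM in the others.

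The change of Tie1 from small intestine to large bowel differed between LEC-like and fibroblast-like cells by 1.85 ± 0.50 (log2, SE, edgeR, adjusted p = 0.0432), a test added after the data had been seen. The sums of lymphatic and blood endothelial markers in the fibroblast-like cells also varied between libraries, and their part in it was not tested.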

How the results depend on the processing

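Of 70 fitted differences of the members 37 passed the threshold, and 19 of these did so under every alternative run. Over all genes, the comparisons they come from called between 0 of 15211 (LEC-like cells, distal against proximal) and 11573 of 17607 genes (LEC-like against fibroblast-like cells). The shares of each comparison are given above, and how many of all genes held under every alternative was not counted. Over 995 alternative values, those of differences that passed kept their direction and call in 488, lost the call in 61 and changed sign in 3, and those of differences that did not pass kept their direction without passing in 362, kept it and passed in 27 and changed sign in 54, of which 2 passed in the other direction. Mean levels moved by more than 1 SD in 37 of 378 alternatives. The cause of these shifts was not tested.

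Counts of called genes moved as follows. Without the library block, subepithelial against trophocyte-like cells fell from 6658 to 4419 genes, Adamdec1 from 5121 to 1759 and universal from 3558 to 708. Clusters in place of gates gave 9057 genes for Adamdec1, where the larger of the 2 clusters counted as Adamdec1 was led by Dkk2, a trophocyte marker, and did not have an Adamdec1 marker among its 5 leading genes. Leaving out 1 library gave 3405 to 5919. No cluster was named telocyte, so that comparison has no such alternative. Between the small intestinal regions, LEC-like cells had 0 called genes, 28 with DESeq2, 144 without the filter, 1 with free RNA removed and 0 to 33 leaving out 1 library, and fibroblast-like cells had 2, with limma-voom 0, DESeq2 151, no filter 24, free RNA removed 0 and 0 to 29 leaving out 1 library. Between large bowel and small intestine, LEC-like cells had 2676 genes, 1611 against the replicates numbered 1 and 1033 to 3554 leaving out 1 library. Fibroblast-like cells had 5890, 1418 and 2964 to 6378, and 1138 within universal fibroblast-like, 2561 within telocyte-like and 455 within trophocyte-like cells.

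Same-numbered proximal and distal libraries deviated together with r = 0.180 over 15211 genes in LEC-like and 0.356 over 18931 in fibroblast-like cells, with 2 pairs and no label that ties them, so the pairing was not established. With the replicate number as a block (replicate block) 209 and 493 genes were called in these classes, Angpt2 (−0.52, adjusted p = 0.0304) and Svep1 (0.64, adjusted p = 0.00537) of LEC-like cells among them.

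Some member differences changed sign (log2). For LEC-like against blood endothelial-like cells these were Tie1 0.0642 without the filter on low counts, Tie1 0.0553 with clusters in place of gates and Svep1 −0.82 with clusters in place of gates. For pericyte-like against fibroblast-like cells these were Angpt4 0.0853 by limma-voom, Angpt4 2.38 with clusters in place of gates and Angpt4 1.23 in the small intestinal libraries. For Adamdec1 against trophocyte-like cells these were Ptprb −0.12 by limma-voom, Ptprb −0.22 with clusters in place of gates and Ptprb −0.21 without the library block. For universal against trophocyte-like cells these were Tie1 −0.13 by limma-voom, Angpt4 −0.0374 with a stricter gate, Ptprb −0.21 with a stricter gate, Angpt2 0.64 with clusters in place of gates, Tie1 −0.36 with clusters in place of gates and Tie1 −0.33 without the library block. For fibroblast-like cells, distal against proximal these were Angpt2 −0.0496 by limma-voom, Ptprb −0.0636 by limma-voom, Tek −0.0335 with free RNA removed, Tek −0.0246 with a stricter gate and Tie1 0.0617 with a stricter gate. For LEC-like cells, large bowel against small intestine these were Tek 0.14 against the replicates numbered 1. For fibroblast-like cells, large bowel against small intestine these were Angpt1 −0.0455 by limma-voom, Angpt1 −0.00498 without the filter on low counts, Angpt1 −0.0175 with free RNA removed, Angpt2 2.55 with free RNA removed, Angpt1 −0.0888 with a stricter gate, Angpt1 −0.0954 against the replicates numbered 1, Svep1 0.74 within subepithelial fibroblast-like cells, Tek −0.69 within telocyte-like cells, Angpt1 −0.42 within Adamdec1 fibroblast-like cells, Tek −0.61 within Adamdec1 fibroblast-like cells, Angpt1 −0.23 within trophocyte-like cells and Angpt2 0.39 within trophocyte-like cells. Leaving out 1 library turned the sign within these ranges: pericyte-like against fibroblast-like cells (Angpt4 −1.04 to 0.52), Adamdec1 against trophocyte-like cells (Ptprb −0.0894 to 0.25), universal against trophocyte-like cells (Ptprb −0.0688 to 0.68), LEC-like cells, distal against proximal (Angpt1 −0.57 to 0.48, Tek −0.0288 to 0.45 and Ptprb −0.16 to 0.19), fibroblast-like cells, distal against proximal (Angpt1 −0.17 to 0.04999, Angpt2 −0.72 to 0.72, Angpt4 −0.17 to 0.30, Tek −0.0858 to 0.10, Tie1 −1.27 to 0.61 and Ptprb −0.97 to 0.97), LEC-like cells, large bowel against small intestine (Tek −0.39 to 0.0609), fibroblast-like cells, large bowel against small intestine (Angpt1 −0.42 to 0.34). Few LEC-like cells in the large bowel and 2 libraries per small intestinal region limit these comparisons.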
